A study of Rattus norvegicus with 6 samples.

Results

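Endothelial nuclei of the nucleus accumbens, a striatal region of the forebrain, were examined in 6 droplet-based single-nucleus RNA libraries from Sprague-Dawley rats. They were chosen by their own RNA. A nucleus needed at least 500 detected genes, at most 5% mitochondrial molecules and at least 3 UMIs (unique molecular identifiers, 1 per RNA molecule captured) of Flt1, Cldn5, Pecam1, Tie1 and Mecom together. It was left out when it held more than 1 UMI of Pdgfrb and Rgs5 (mural cells), of Gad1 and Gad2 (GABA neurons) or of Aqp4 (astrocytes), or any UMI of Mog or Opalin (oligodendrocytes) or Csf1r (microglia). This gave 229 endothelial nuclei of 61609 kept, or 0.372%. Of 444 nuclei with 3 or more endothelial marker UMIs, 215 were left out for RNA of another cell type, most often for Gad1 or Gad2 (121) or for Mog or Opalin (113). The values that chose the nuclei are given below as a description, with no test.

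All rats were male or female Sprague-Dawley animals, 90 to 120 days old, and all had self-administered heroin, first on a fixed ratio of 1 (7 days) and then on a fixed ratio of 3 (4 days). Day 12 held a progressive ratio test, and the ratio of 3 returned on days 13 and 14. The saline group (libraries 1, 2 and 3) and the naloxone group (libraries 4, 5 and 6) differed in the injection given after the last session, 1 h before the brains were taken. Naloxone blocks opioid receptors. The tissue came from frozen punches 2 mm deep of 12 rats, 6 male and 6 female, and each library pools both sexes, so 1 library is not 1 animal. Heroin-naive rats were not analysed here, and every value below comes from heroin-experienced animals.

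Brain endothelial cells line the blood vessels and form the blood-brain barrier. Tight junctions seal the gaps between them, carriers in their membranes bring in glucose, amino acids and hormones, and ATP-driven pumps return many drugs to the blood. Wnt signalling to these cells is known to keep the barrier in place, and arteries, capillaries and veins are lined by endothelial cells with partly different genes. Nuclear libraries measure RNA still in the nucleus, so the levels below are nuclear levels. Levels are given as CPM, the UMIs of a gene scaled to 1000000 UMIs in the endothelial nuclei of a library, and were not compared between genes because they are not corrected for gene length.

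The start regions of 3 of the 5 marker genes are shown because these genes define the nuclei. Each is the RefSeq promoter window of build GRCr8, 250 bases before to 50 after the gene's start, read 5′ to 3′ on the gene's strand. Flt1 (the VEGF receptor 1) lies at chr12:12333180-12333479 on the plus strand, Mecom (a zinc finger transcription factor) at chr2:114837643-114837942 on the plus strand, and Cldn5 (the main claudin of brain vessels) at chr11:95718549-95718848 on the minus strand. Capitals mark matches of AGGAAG or CGGAAG on either strand, core sequences of the ETS family of transcription factors.
Flt1: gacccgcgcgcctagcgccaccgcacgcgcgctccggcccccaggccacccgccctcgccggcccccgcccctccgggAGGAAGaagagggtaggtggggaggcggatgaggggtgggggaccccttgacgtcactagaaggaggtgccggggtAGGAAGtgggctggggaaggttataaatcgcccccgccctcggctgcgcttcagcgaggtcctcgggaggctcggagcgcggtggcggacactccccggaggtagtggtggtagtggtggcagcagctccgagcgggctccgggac
Mecom: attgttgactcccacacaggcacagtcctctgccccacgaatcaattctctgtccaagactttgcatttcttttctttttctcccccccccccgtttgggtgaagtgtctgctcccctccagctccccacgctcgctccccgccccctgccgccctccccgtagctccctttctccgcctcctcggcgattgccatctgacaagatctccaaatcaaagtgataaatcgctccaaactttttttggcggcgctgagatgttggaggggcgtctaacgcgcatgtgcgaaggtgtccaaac
Cldn5: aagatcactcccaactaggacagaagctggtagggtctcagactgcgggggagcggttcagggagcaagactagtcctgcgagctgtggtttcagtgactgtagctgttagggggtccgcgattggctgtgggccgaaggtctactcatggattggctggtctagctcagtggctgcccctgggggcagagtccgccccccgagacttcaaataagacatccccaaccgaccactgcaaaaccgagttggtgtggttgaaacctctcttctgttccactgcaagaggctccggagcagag
The Flt1 window held 2 matches, and the Mecom and Cldn5 windows held 0. By gene, with a match in any window of the gene, 2 of 4 marker genes held one, and 9 of the 17 leading genes named below that have a window (52.9%). The same was true of 47.9% of all 27457 genes of the table. Several windows of a gene can overlap, so windows were not counted singly, and no difference between these shares was tested.

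The number of endothelial nuclei was 16, 70 and 26 in saline libraries 1 to 3 and 45, 31 and 41 in naloxone libraries 4 to 6. As a share of the nuclei kept, this was 0.203%, 0.482% and 0.280% after saline and 0.420%, 0.283% and 0.499% after naloxone. The exact binomial 95% interval, which covers counting error only, was 0.116% to 0.329% in saline 1 and 0.376% to 0.609% in saline 2, so 2 libraries of the same group differed by more than counting error. The means were 0.322 ± 0.144% after saline and 0.401 ± 0.110% after naloxone (SD, n = 3 libraries each). The groups overlapped, and an exact two-sided permutation test gave p = 0.4, where 3 libraries against 3 cannot go below 0.1. Fewer nuclei of a type and fewer nuclei recovered from it cannot be told apart here. The 121 mural nuclei, the pericytes and smooth muscle cells that wrap the same vessels, made up 0.195 ± 0.0384% after saline and 0.192 ± 0.0771% after naloxone. No endothelial barcode was shared as endothelial by 2 libraries, and 2 of them also occurred among the other barcodes of another library.

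The libraries held between 55739350 and 76272798 UMIs, but the endothelial nuclei only 364003 together, namely 19328, 97900 and 48612 after saline and 59216, 36017 and 102930 after naloxone. A single UMI in a library was therefore worth between 9.72 CPM (naloxone 6) and 51.7 CPM (saline 1). The median endothelial nucleus held 1136 UMIs of 842 genes, against 5124 UMIs over all nuclei kept. The median share of mitochondrial UMIs in endothelial nuclei was 0.353%, 1.14% and 0.505% after saline and 0.575%, 2.19% and 0.439% after naloxone. An Xist UMI, a mark of a female nucleus, was found in 18.8%, 24.3% and 30.8% of endothelial nuclei after saline and 37.8%, 25.8% and 58.5% after naloxone. A UMI of a Y-linked gene, a mark of a male nucleus, was found in 31.25%, 32.9% and 19.2% after saline and 13.3%, 16.1% and 19.5% after naloxone. The mix of sexes thus differed between libraries, and its part in the naloxone differences below was not tested.

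A small number of nuclei held much of this RNA. The 23 nuclei with over 2 times the median UMIs of their library's endothelial nuclei held 34.4% of the UMIs, 58.9% in naloxone 6 and 0% in saline 1. RNA of neurons moved with them. Summed over 13 neuron markers, endothelial nuclei stood at 673, 7691 and 4135 CPM after saline and 4678, 4054 and 14116 CPM after naloxone, or 28.9% of the level in all other nuclei. Without the 23 nuclei the same sums were 673, 1858 and 3906 CPM after saline and 2695, 1409 and 3287 CPM after naloxone, or 11.3%. Of these markers, all 13 had UMIs, and Rbfox1, a neuronal splicing factor, ranged from 103 CPM in saline 1 to 5285 CPM in naloxone 6. Without these nuclei, endothelial nuclei made up 0.302 ± 0.119% after saline and 0.347 ± 0.0796% after naloxone (exact permutation p = 0.7). The levels below are those of all endothelial nuclei. Flt1, for example, averaged 3540 CPM over the 6 libraries and 4389 CPM without these nuclei. For many of the naloxone differences below, the repeat without these nuclei is also given. The part of neuron RNA in the results was otherwise not tested.

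**Figure D1:**
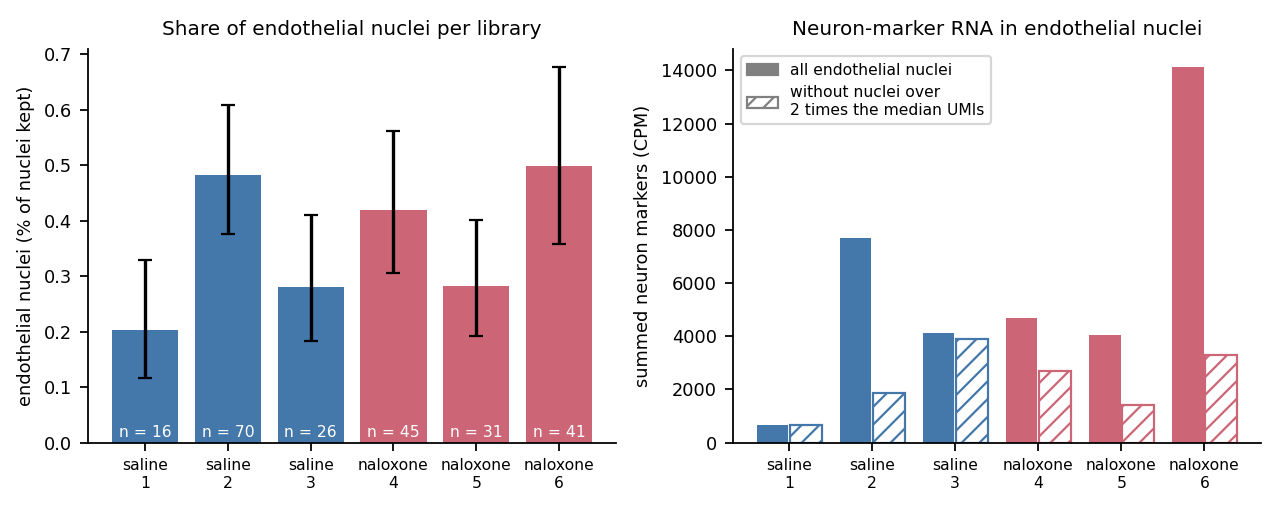
Left, endothelial nuclei as a percentage of the nuclei kept in each library, with exact binomial 95% intervals and the number of nuclei in each bar. Right, summed CPM of 13 neuron markers in the endothelial nuclei of each library, with all nuclei (filled) and without nuclei over 2 times the median UMIs (hatched); naloxone 6 drops from 14116 to 3287 CPM.

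Markers of the other vascular and glial classes were below their level in those classes, though not in each case below that of all other nuclei. Mog, Opalin and Csf1r had 0 UMIs by the rule, and Pdgfrb also had 0 where the rule allowed 1 per nucleus. The mural markers outside the rule had 47 UMIs over all 14. Their sum of 179 CPM (range 27.8 to 569) was far below the 14353 CPM of mural nuclei but above the 54.3 CPM of all other nuclei. Atp13a5, a pericyte cation pump, stood at 5.63 against 6154 CPM in mural nuclei. Of 10 microglia and macrophage markers, 6 were at 0 UMIs, P2ry12, Ptprc, Mrc1, Cd163 and F13a1 among them, and the sum was 114 CPM against 6890 CPM in microglia. Of 12 astrocyte markers all had UMIs, with a sum of 1241 CPM against 31065 CPM in astrocytes. Of 10 oligodendrocyte markers, 8 had UMIs, with a sum of 1275 CPM against 15285 CPM in oligodendrocytes and 1442 CPM in all other nuclei. Oligodendrocyte precursor markers summed to 727 CPM against 1077 CPM in all other nuclei, with 1769 CPM in saline 3, which was 262 CPM without the nuclei of many UMIs. Of 12 fibroblast markers, the collagen gene Col3a1 and Dcn and Lum, which encode proteoglycans of the matrix, were at 0 UMIs, but the sum of 208 CPM was above the 63.3 CPM of all other nuclei and below the 841 CPM of mural nuclei. The part of this RNA in the results was not tested. Of 5 lymphatic markers in the files, Prox1, the defining factor, had 1 UMI, while Flt4 (VEGF receptor 3), which brain vessels can also express, stood at 72.3 ± 48.6 CPM (SD, n = 6 libraries, as for all levels below).

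The 5 marker genes were spread over the nuclei. Of the 229 nuclei, 11 held UMIs of 1 of the 5 genes, 84 of 2, 82 of 3, 46 of 4 and 6 of all 5, and 0 held neither Flt1 nor Mecom. Flt1 was found in 96.5% of endothelial nuclei, Mecom in 82.1%, Pecam1 in 50.2%, Cldn5 in 31.0% and Tie1 in 19.2%. In GABA neurons, at a median of 9678 UMIs, the shares with Flt1 and Mecom were 0.379% and 0.255%. Levels of Flt1 were 4398, 3514 and 4155 CPM after saline and 3361, 3276 and 2536 CPM after naloxone, against 4.13 CPM in all other nuclei. Just inside the threshold, 17 nuclei with exactly 3 marker UMIs carried 5 other endothelial genes at 4508 CPM together. Just outside it, 36 nuclei with exactly 2 carried them at 589 CPM, and 112 nuclei with 10 or more at 6893 CPM. In the same nuclei 5 neuron genes stood at 9744 CPM with exactly 3 marker UMIs and 9757 CPM with exactly 2, against 5062 CPM with 10 or more. The 21 nuclei with exactly 4 carried the endothelial genes at 4339.5 CPM and the neuron genes at 3609.5 CPM. These values pool the UMIs of each set of nuclei, so a few nuclei of many UMIs can carry them. Pooled in this way, the 17 nuclei with exactly 3 held endothelial RNA beside neuron RNA at the level of those with exactly 2, and those with exactly 4 did not.

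Genes outside the rule were checked against the label of endothelial cells. Of 28 other endothelial markers in the files, all 28 had UMIs and 25 had at least 10. Of these 25, 24 lay above all other nuclei in 6 of 6 libraries, against 19.4% of the 6687 genes with at least 10 UMIs, and 24 were over 10 times higher, against 6.82%. These shares are a description, because the nuclei were chosen by RNA of the same cells. The median nucleus held UMIs of 9 of these markers, and 97.8% of nuclei held 3 or more.

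The genes that stood out most from other nuclei, ranked by the ratio of levels among genes at 100 CPM or more, were led by Adgrl4, an adhesion receptor of vessels (1535 ± 700.1 against 1.31 CPM, a ratio of 1172). Sox17, an arterial and barrier transcription factor, followed at 244 ± 73.9 against 0.239 CPM, and Cyyr1 at 2758 ± 451 against 2.88 CPM. Cyyr1 was found in 84.7% of nuclei, and its 6 values lay between 2361 and 3518 CPM. The sialomucin Emcn reached 567 ± 197 CPM and the adhesion receptor Adgrf5 1022 ± 248 CPM, with ratios of 851 and 787. The guidance receptor Robo4 (105 CPM), the von Willebrand factor gene Vwf (458 ± 180 CPM), the cytokine receptor Osmr (114 CPM) and the thiamine carrier Slc19a3 (122 ± 85.2 CPM) were among the 20 leading genes, with ratios of 414 to 685. The others were Zfp366, Akr1c15, Prom1, Galnt15, Ushbp1, Dipk2b, Slco1a5, Hspa12b, She, Lgals9 and ENSRNOG00000064726, for which the files give no symbol.

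**Figure D2:**
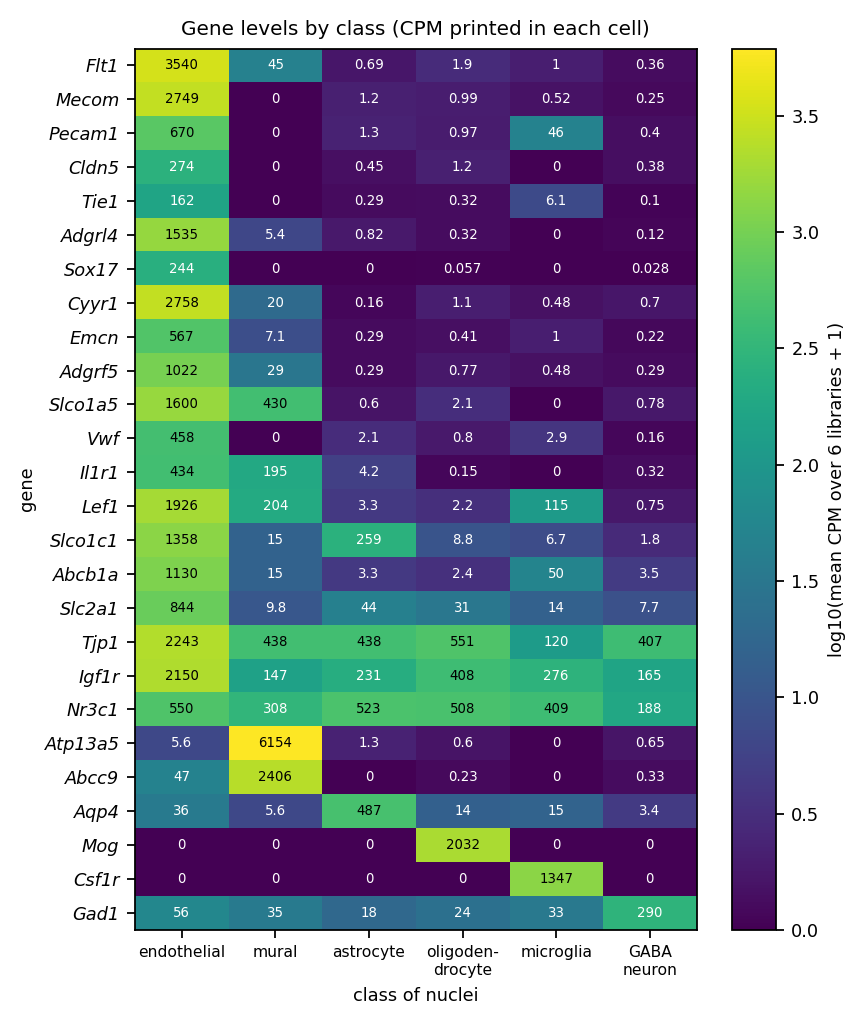
Mean CPM over 6 libraries of 26 genes (rows) in endothelial nuclei and 5 other classes of nuclei (columns), on a log10 colour scale with the CPM printed in each cell. The marker and barrier genes are highest in endothelial nuclei, and Atp13a5, Aqp4, Mog, Csf1r and Gad1 in mural nuclei, astrocytes, oligodendrocytes, microglia and GABA neurons.

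Junction genes were well represented. Of 23 in the files, 19 had at least 10 UMIs and 16 of these lay above other nuclei in 6 of 6 libraries. Over all genes with at least 10 UMIs this share was 19.4%, which stands beside each such count below. Tjp1, the scaffold ZO-1 that ties tight junctions to the cytoskeleton, was found in 89.5% of nuclei and ranged from 1642 to 3249 CPM, against 417 CPM in other nuclei and 438 CPM in mural nuclei. Cgnl1, the junction protein paracingulin, stood at 499 ± 251 against 1.71 CPM, a ratio of 292. Cldn5 reached 310, 398 and 165 CPM after saline and 270, 305 and 194 CPM after naloxone. Its values overlapped between the groups. Heg1, a junctional receptor of vessels, stood at 755 ± 177 against 21.2 CPM, and Jam2, a junctional adhesion molecule, at 330 ± 80.6 against 17.8 CPM. Pard3 (721 against 623 CPM) and Magi1 (459 against 367 CPM), polarity and scaffold proteins used by many cells, were above other nuclei in 5 of 6 libraries.

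Of 32 transporters in the files, 22 had at least 10 UMIs and 13 of these were above other nuclei in every library. Slc2a1, the glucose carrier GLUT1, was measured at 1242, 613 and 494 CPM after saline and 760, 1277 and 680 CPM after naloxone, against 12.7 CPM in other nuclei. The highest value was in naloxone 5 and the lowest in saline 3, and the groups overlapped. The organic anion carrier Slco1c1, which takes up thyroid hormone, stood at 1358 ± 502 CPM in endothelial nuclei, 259 CPM in astrocytes and 14.7 CPM in mural nuclei. Slco1a5 of the same family reached 1600 ± 359 CPM in endothelial and 430 CPM in mural nuclei. The amino acid carriers Slc7a5 (495 ± 97.4 against 6.27 CPM) and Slc7a1 (548 ± 46.7 against 15.5 CPM) varied little between libraries, from 378 to 608 and from 490 to 621 CPM. Slc39a10, a zinc carrier, was at 973 ± 212 against 68.6 CPM and the taurine carrier Slc6a6 at 826 ± 213 against 129.9 CPM. The lipid flippase Atp10a was at 962 ± 203 against 19.5 CPM, whereas Atp8a1 of the same family was below other nuclei in 6 of 6 libraries (316 against 633 CPM). Slc29a4 and Slc13a3 had 0 UMIs in 364003, which allows 3 UMIs.

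Among the ATP-driven efflux pumps, Abcb1a, which encodes P-glycoprotein, was found in 67.2% of endothelial nuclei. Its values were 1190, 1072 and 987 CPM after saline and 1182, 1444 and 904 CPM after naloxone, against 5.71 CPM in other nuclei and 14.7 CPM in mural nuclei. Abcg2, the breast cancer resistance protein, stood at 393 ± 111 against 0.986 CPM, a ratio of 398. Abcc4 stood at 739 ± 154 against 30.4 CPM. These 3 pumps were above other nuclei in every library, out of 10 in the list with at least 10 UMIs, against 19.4% of all such genes. Abcc1 (63.2 against 82.8 CPM) and Abcc5 (264 against 208 CPM) lay close to other nuclei. The paralog of P-glycoprotein, Abcb1b, had 0 UMIs, and counting can divide or discard reads that both copies share.

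**Figure D3:**
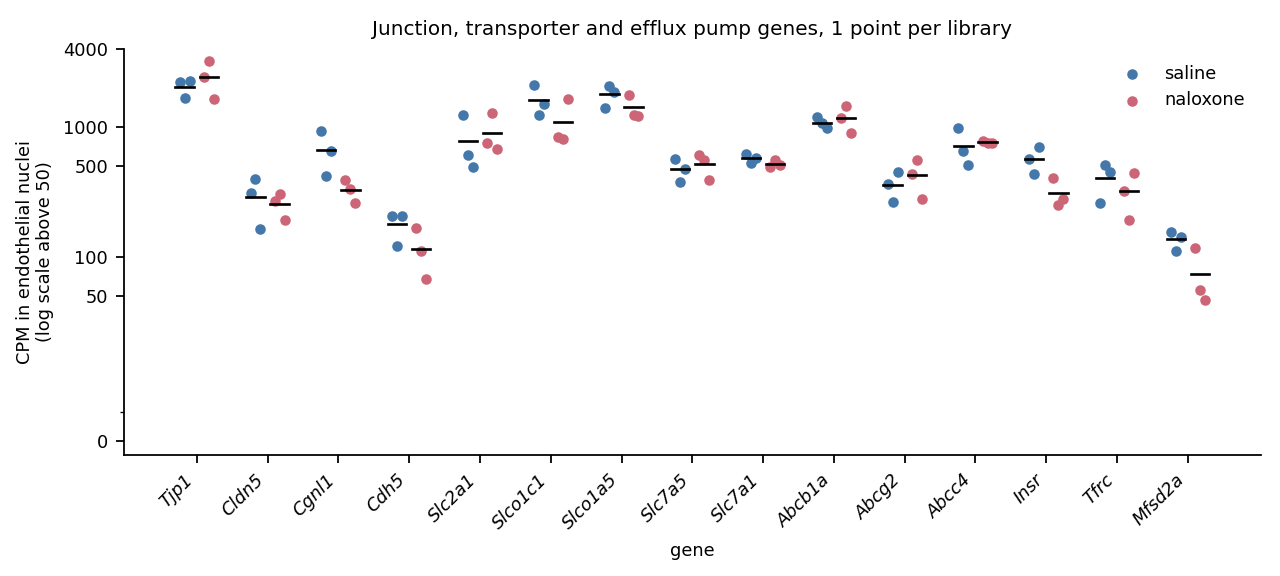
CPM of 15 junction, transporter, efflux pump and receptor genes in the endothelial nuclei of each library (points, 3 saline and 3 naloxone), with group means as horizontal lines, on an axis that is linear below 50 and logarithmic above. Abcb1a lies between 904 and 1444 CPM and Slc7a1 between 490 and 621 CPM with overlapping groups.

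Igf1r, the receptor of insulin-like growth factor 1, was found in 77.7% of endothelial nuclei at 2150 ± 402 CPM, against 191 CPM in other nuclei and 147 CPM in mural nuclei. Its values were 2535, 1737 and 2324 CPM after saline and 1672, 2610 and 2021 CPM after naloxone. The transferrin receptor gene Tfrc (364 ± 125 against 25.5 CPM) and the insulin receptor gene Insr (441 ± 171 against 64.8 CPM) were also above other nuclei in 6 of 6 libraries. Lrp8, a lipoprotein receptor, reached 280.2 ± 135 against 31.8 CPM. The caveolae genes Cav1 (99.9 ± 60.8 against 3.90 CPM) and Cavin2 (64.9 ± 21.0 against 1.32 CPM) were measured from 29 and 25 UMIs. Plvap, which marks leaky fenestrated vessels, had 0 UMIs.

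In the VEGF and angiopoietin pathway, 16 of 22 genes had at least 10 UMIs and 11 of them were above other nuclei in every library. Tek, the angiopoietin receptor TIE2, lay between 517 and 726 CPM (651 ± 71.8 against 5.67 CPM). Ptprb, the phosphatase that restrains it, stood at 797 ± 320 against 12.0 CPM. Among the Wnt pathway genes, Lef1, the transcription factor through which Wnt signals act on barrier genes, was found in 80.8% of nuclei. It was measured at 2225, 1604 and 1810 CPM after saline and 2162, 2277 and 1477 CPM after naloxone, against 5.08 CPM in other nuclei, 204 CPM in mural nuclei and 115 CPM in microglia. The groups overlapped. Apcdd1, a Wnt target (125 ± 92.4 against 1.58 CPM), the receptor gene Fzd6 (148 ± 136 against 0.428 CPM) and Adgra2, the GPR124 coreceptor of Wnt7 (137 ± 75.7 against 10.9 CPM), also exceeded other nuclei in 6 of 6 libraries, and the ligand genes Wnt7b and Ndp had 0 UMIs.

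Of the TGF-beta and BMP pathway, Bmpr2, a BMP receptor, reached 850.4 ± 159 against 175 CPM. Eng, the coreceptor endoglin, reached 461 ± 287 against 2.15 CPM and Acvrl1, its partner kinase ALK1, 124 ± 58.1 against 0.450 CPM. Smad6, an inhibitor of BMP signals, stood at 192 ± 73.6 against 0.696 CPM. In the Notch pathway, Notch1 (157 ± 80.5 against 10.7 CPM), Notch4 (116 ± 34.5 against 3.57 CPM) and the ligand gene Jag1 (59.0 ± 26.8 against 2.49 CPM) were above other nuclei in every library. The coactivator gene Maml2 was at 1409 ± 727 CPM but also at 1146 to 1301 CPM in mural nuclei, astrocytes and microglia. Of 31 transcription factors of endothelial cells, 22 had at least 10 UMIs and 17 were above other nuclei in every library, among them the ETS factors Fli1 (511 ± 344 against 11.2 CPM) and Ets1 (350.2 ± 85.6 against 7.99 CPM). Epas1, the hypoxia-inducible factor HIF2 alpha, stood at 868 ± 182 in endothelial nuclei, 337 in mural nuclei and 99.9 CPM in astrocytes. Meis2 was below other nuclei in every library (314 against 1188 CPM), with 674 and 806 CPM in saline 2 and naloxone 6 and 84.4 to 111 CPM in the others.

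Basement membrane genes were shared with mural nuclei. Lama4, a laminin of vessels, stood at 483 ± 299.8 CPM in endothelial and 690.3 CPM in mural nuclei, and Col4a1, a collagen, at 418 ± 235 and 223 CPM. Fn1, fibronectin, differed more, at 387 ± 243 against 39.3 CPM in mural and 1.17 CPM in all other nuclei. Genes that act on vessel tone and clotting included Nos3, the endothelial nitric oxide synthase, at 238 ± 110 CPM with 0 UMIs in mural nuclei. Plat, tissue plasminogen activator, stood at 242 ± 78.9 against 2.57 CPM and Piezo1, a flow-sensing channel, at 152 ± 69.5 against 2.18 CPM. The flow-responsive factors Klf2 (115 ± 41.4 against 0.731 CPM) and Klf4 (55.8 ± 18.4 against 0.652 CPM) were above other nuclei in 6 of 6 libraries.

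Of 39 genes of leukocyte adhesion, inflammation and antigen presentation, 14 had at least 10 UMIs and 12 of these were above other nuclei in every library. Il1r1, the interleukin 1 receptor gene, was at 259, 715 and 61.7 CPM after saline and 794, 444 and 330 CPM after naloxone, against 1.34 CPM in other nuclei and 195 CPM in mural nuclei. The interferon receptor gene Ifnar1 stood at 494 ± 174 against 57.1 CPM, and the chemokine gene Cxcl12 at 369 ± 129 against 1.57 CPM. Sele, Selp, Ccl2, Cxcl10, Cd74 and 5 other genes of the list had 0 UMIs.

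Il1r1 was uneven over the nuclei. Its 175 UMIs lay in 55 nuclei, 128 of them in 19 nuclei with 3 or more, and the nucleus with the most held 31. Vwf, which is higher in veins and large vessels, had 158 UMIs in 86 nuclei. Of the 175 Il1r1 UMIs, 132 lay in the nuclei with a Vwf UMI, where the level was 869 CPM against 203 CPM in the nuclei without, at median depths of 1345 and 1043 UMIs. The shares of nuclei with an Il1r1 UMI were closer, at 31.4% (27 of 86) with Vwf and 19.6% (28 of 143) without. In the 79 nuclei with UMIs of Bmx, Sema3g, Gja5, Hey1, Jag1, Dll4, Fbln5 or Edn1, 8 arterial genes picked after values had been seen, Il1r1 stood at 132 CPM, against 672 CPM in the other 150 nuclei. In the same split, Smad6 was at 349 against 89.3 CPM and Notch4 at 171 against 76.5 CPM. The capillary carrier gene Slc7a5 was at 461 CPM in nuclei with Vwf and 457 CPM in those without, so these genes did not all follow 1 order. These splits pool the nuclei of 6 libraries, and no test was made on them.

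Shares of nuclei with a UMI of an arterial, capillary or venous list were compared between the groups. The arterial list was found in 86.1 ± 10.6% of nuclei after saline and 83.0 ± 13.2% after naloxone, the capillary list in 99.5 ± 0.825% and 98.2 ± 1.65%, and the venous list, carried by Il1r1 and Vwf, in 60.6 ± 18.4% and 54.1 ± 13.9%. Exact two-sided permutation tests gave p = 0.7, 0.4 and 0.7 (n = 3 libraries each). GABA neurons, which are deeper, held UMIs of the lists in 99.0%, 90.2% and 8.78% of nuclei, so the first 2 shares do not mark a vessel type. With each nucleus thinned to 1000 UMIs, leaving out 90 of 229 nuclei, the arterial share was 84.6%, 84.6% and 85.0% after saline and 81.5%, 61.5% and 70.4% after naloxone. These did not overlap, with p = 0.1 as the smallest value the exact permutation test can give, and the capillary share, 98.3% against 91.3%, gave the same p. With nuclei thinned to 500 UMIs, where 0 nuclei are left out, the arterial share was 67.0% against 54.4% (exact permutation p = 0.1), and the capillary share 90.4% against 87.8%, with groups that overlapped (exact permutation p = 0.7). The venous share reversed in direction at that depth. None of these shares was repeated without the nuclei of many UMIs.

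Hormone, stress and opioid genes were examined because naloxone was given to heroin-experienced animals. The glucocorticoid receptor gene Nr3c1 was at 550.2 ± 182 CPM and the mineralocorticoid receptor gene Nr3c2 at 500 ± 118 CPM, both above other nuclei (234 and 312 CPM) in 6 of 6 libraries. Zbtb16, a zinc finger gene induced by glucocorticoids, was at 103, 409 and 514 CPM after saline and 439, 1305 and 418 CPM after naloxone. The groups overlapped, with naloxone 5 far above the other 5 libraries. In all other nuclei Zbtb16 averaged 55.5 CPM after saline and 117 CPM after naloxone. The opioid receptor genes were near the floor, with 2 UMIs of Oprm1, 2 of Oprk1, 1 of Oprd1 and 1 of Oprl1 in all endothelial nuclei. Oprm1 was found in 0.873% of them, in 3.31% of mural nuclei and in 2.24% of oligodendrocytes. Its 2 UMIs in endothelial nuclei lay in saline 2, and 0 were left without the nuclei of many UMIs. Penk, the enkephalin precursor gene, had a UMI in 19.2% of endothelial nuclei, 16.5% of mural nuclei and 18.2% of oligodendrocytes. The median depths of these classes differed, at 1136, 1068 and 1909 UMIs, and the source of this RNA was not tested. Of 35 immediate early genes, 26 had UMIs, against 13542 of all 25629 genes, and 6 had at least 10, against 6687. The other 9 were at 0 UMIs, Fosb, Arc, Npas4 and Egr3 among them. The list summed to 551 CPM in endothelial nuclei, 326 CPM in all other nuclei, 405 CPM in mural nuclei and 387 CPM in GABA neurons.

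Naloxone was then compared with saline to ask which endothelial genes differed 1 h after the injection. No gene passed the test. Of the 1269 genes with enough UMIs, edgeR's quasi-likelihood test called 0 (0%), with a smallest adjusted p of 0.946, and DESeq2 called 0. An unadjusted p under 0.05 was given to 48 genes (3.78%), 23 higher and 25 lower after naloxone, and by DESeq2 to 40. The median log2 change was 0.00465 over all genes tested. All 3 naloxone libraries lay above all 3 saline libraries for 37 genes (2.92%) and below them for 91 (7.17%). Without the 23 nuclei of many UMIs these counts were 67 and 59. The p-values measure the spread between libraries of pooled animals, and genes under about 185 CPM were mostly not tested.

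Among the 10 genes with the smallest unadjusted p and groups apart, a chaperone and a leading endothelial gene stayed apart without the nuclei of many UMIs. Hsp90aa1, the stress-inducible HSP90 chaperone, was at 310, 276 and 350 CPM after saline and 135, 55.5 and 126 CPM after naloxone (log2 change -1.34, SE 0.37, edgeR adjusted p = 0.946), and without those nuclei the log2 change was -1.35. Akr1c15, an aldo-keto reductase and 1 of the 20 leading genes, was at 207, 194 and 206 CPM after saline and 372, 333 and 398 CPM after naloxone (log2 change 0.96, SE 0.29, edgeR adjusted p = 0.946), and 0.92 without them. The groups did not overlap in either gene, and neither was called. In all other nuclei Hsp90aa1 averaged 116 CPM after saline and 88.5 CPM after naloxone, and Akr1c15 0.391 and 0.376 CPM.

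Of the 8 further list members with an unadjusted p under 0.05, all but Celf4 were lower after naloxone. Eng was at 983, 388 and 597 CPM after saline and 270.2, 305 and 223 CPM after naloxone (log2 change -1.13, edgeR adjusted p = 0.946). Notch1 was at 259, 194 and 226 against 101.3, 55.5 and 107 CPM (log2 change -1.11, edgeR adjusted p = 0.946). In both genes the groups did not overlap. Without the nuclei of many UMIs Eng overlapped, with a log2 change of -0.75, and Notch1 did not. Ptprb (log2 change -0.81), the junction gene Cgnl1 (-0.88), the basement membrane genes Hmcn1 (-1.10) and Adamts9 (-1.08) and the capillary gene Ivns1abp (-1.23) were also lower in each naloxone library, with edgeR adjusted p of 0.946. Of these, Adamts9, a protease, and Cgnl1 stayed apart without those nuclei and Ptprb, Hmcn1 and Ivns1abp did not. Summed neuron markers averaged 4166 CPM after saline and 7616 CPM after naloxone, and beyond that repeat their part in these differences was not tested.

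Among the other genes with the smallest p and groups apart, Mpdz (a scaffold of tight junctions) was at 517, 276 and 309 CPM after saline and 135, 83.3 and 97.2 CPM after naloxone (log2 change -1.55, edgeR adjusted p = 0.946). Ehd4, an endocytic ATPase, was at 207, 317 and 206 against 84.4, 0 and 29.1 CPM (log2 change -2.54, edgeR adjusted p = 0.946). Snx13, a sorting nexin, had a log2 change of -1.03. These 3 genes stayed apart without the nuclei of many UMIs. Slit3, a secreted guidance protein, was at 0, 91.9 and 144 CPM after saline and 473, 278 and 495 CPM after naloxone (log2 change 2.22, edgeR adjusted p = 0.946), with 30 of its 105 UMIs left without those nuclei. It then stood at 0, 74.3 and 105 CPM after saline and 241, 190.3 and 118 CPM after naloxone, groups that are apart by less than the worth of 1 UMI in either library next to the gap. Tle4 (log2 change 1.56), Mctp1 (1.97), Kiaa0825 (1.35) and Kalrn (1.19) overlapped between the groups without them. Celf4, 1 of the neuron markers, stood at 0, 204 and 20.6 CPM after saline and 303.97, 194 and 787 CPM after naloxone. The groups overlapped, and the log2 change of 2.12 was 4.91 without saline 2 and 0.50 with nuclei of 2 or more marker UMIs. With these added nuclei the log2 change of Tle4 was 0.34 and that of Slit3 1.31.

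**Figure D4:**
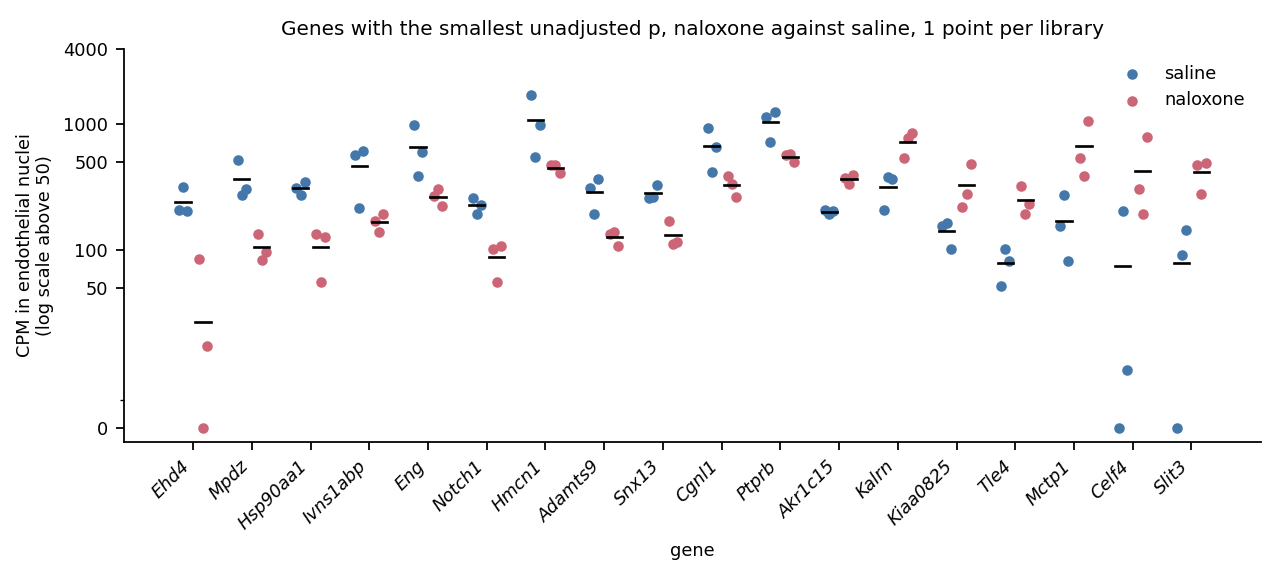
CPM in the endothelial nuclei of each library (points, 3 saline and 3 naloxone) with group means as horizontal lines, for the 10 genes with the smallest unadjusted p whose groups did not overlap and the 8 further list members with an unadjusted p under 0.05, ordered by log2 change, on an axis that is linear below 50 and logarithmic above. The groups are apart in each gene except Celf4, and 0 of the 18 genes passed the adjusted test.

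By list, the counts of members with an unadjusted p under 0.05 stood near the 3.78% of all genes or rested on 1 or 2 genes. Of 14 junction genes tested, 0 were higher and 1 lower, with a median log2 change of -0.14. Of 11 transporters tested, 0 passed in either direction, with a median of -0.02, and of 4 efflux pumps 0, with a median of 0.22. Of 16 other endothelial markers tested, 2 were lower and 0 higher, with 14 below 0 and a median of -0.21, which was -0.07 without the nuclei of many UMIs. Of 12 basement membrane and integrin genes, 1 was lower, with 10 below 0 and a median of -0.34 (-0.22 without those nuclei). Of 6 heat shock genes, 1 was lower, with a median of -0.29 and of -0.01 without them. Hsp90b1, the chaperone of the endoplasmic reticulum, went the other way from Hsp90aa1. It was at 155, 358 and 288 CPM after saline and 473, 666 and 330 CPM after naloxone, which overlap, with a log2 change of 0.78 (edgeR adjusted p = 0.946). Without the nuclei of many UMIs its groups were apart and its log2 change was 1.14. Of 6 neuron markers tested, 1 was higher and all 6 log2 changes were above 0, with a median of 0.91, and 0.63 without those nuclei. Of 35 immediate early genes and 9 opioid genes in the files, 0 had enough UMIs to be tested.

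Whether the naloxone difference in endothelial nuclei differed from that in other nuclei was tested with an interaction of class and treatment, in a model that blocked on library. Against all other nuclei, edgeR called 1 of 16107 genes (0.00621%), Zfp804b, a zinc finger gene, at an adjusted p of 0.0468. It had 0 UMIs in the saline endothelial nuclei and 12, 1 and 29 UMIs in naloxone 4, 5 and 6, which is at least 11.7-fold higher against a floor of 3 UMIs over the saline group. In other nuclei it stood at 318 and 383 CPM. Of its 42 UMIs, 40 lay in the nuclei of many UMIs, and without these the call was lost. The count was also 0 when any 1 library other than naloxone 5 was left out, and it moved in 10 of 14 alternatives. Against mural nuclei 0 of 1005 genes (0%) were called, with 28 at an unadjusted p under 0.05, and against astrocytes 0 of 6833 (0%), with 205. DESeq2 was not used for this term.

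For the genes described above, the term gave no call. Its value for Hsp90aa1 was -0.90 on the log2 scale (SE 0.52, edgeR adjusted p = 1 against all other nuclei), and for Zbtb16 -0.14 (SE 0.47). For Nr3c1 it was 0.03 (SE 0.53), for Slc2a1 0.25 (SE 0.44) and for Abcb1a 0.19 (SE 0.49). A p that misses the threshold does not show that the classes responded alike.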

How the data were processed

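Nuclear RNA was measured in 3 saline and 3 naloxone libraries. The deposited values are raw UMI counts per gene and barcode (25629 genes), and the submitters' processing notes name Cell Ranger 9.0.1, Seurat 5.2.1, R 4.4.0 and the rat build mRatBN7.2. The labels' protocols give 44592 nuclei, while the files hold 64260 barcodes, of which 61609 passed 500 genes and 5% mitochondrial UMIs. Of these barcodes 464 occurred in more than 1 library.

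Endothelial nuclei and gene lists were chosen with earlier results of these data known, and the rule for mural nuclei was set after values had been seen. Counts were summed per library and class, and CPM computed from the sums. Naloxone and saline were compared with edgeR 4.0.16 (quasi-likelihood, TMM, low counts filtered, R 4.3.3), with DESeq2 1.42.0 as an alternative and Benjamini-Hochberg adjustment at 0.05. Shares were compared by exact permutation tests. The fit of naloxone against saline and the interaction with all other nuclei were checked on simulated data. Most of the smaller changes were called by neither fit, and the interaction also missed most of the larger ones. A count of 0 therefore does not show that genes did not differ. The simulated other nuclei were given the spread of the endothelial sums, with no library effect shared between the classes. The share of changes that the interaction finds in these data may therefore differ from the simulated one. The interactions with mural nuclei and astrocytes used the same function and were not simulated.

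The genes named are those called, the 10 with the smallest unadjusted p whose groups did not overlap (20 CPM or more), list members with an unadjusted p under 0.05, the rule's own genes, the opioid receptors, the 20 leading genes, and per list those with the most UMIs or named for their role. No doublet caller was run. The rule removes nuclei with markers of other cells, and repeats left out nuclei with Xist and Y-linked UMIs (8) or over 2 times the median UMIs (23). Intervals and floors of 3 UMIs cover counting error only.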

Additional observations from a re-analysis of the deposited data

Results flagged for a closer look

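Zfp804b was the 1 gene whose naloxone difference in endothelial nuclei differed from that in all other nuclei by the test of the difference itself (edgeR interaction term, adjusted p = 0.0468). It had UMIs in 3 of 3 naloxone libraries and in 0 of 3 saline libraries. Of its 42 UMIs, 2 remained without the nuclei over 2 times the median UMIs, which is under the floor of 3 UMIs.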

How the results depend on the processing

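Over the 233 alternatives that gave a value for 18 named genes, 229 log2 changes kept their direction and stayed uncalled. A gene that failed the filter on low counts in an alternative gave no value there. Slit3, Mpdz, Ehd4, Tle4, Mctp1, Kiaa0825 and Celf4 gave none without nuclei over 2 times the median UMIs, so the 229 do not cover that repeat for them. Slit3, Mctp1 and Celf4 were called without a filter on low counts, and Kiaa0825 changed sign, to -0.038, with nuclei of 2 or more marker UMIs. Without a filter 13 genes were called for naloxone. In each of the 13, most UMIs lay in the nuclei over 2 times the median. For the interaction with all other nuclei, 0 genes were called without a filter, with 5 or more marker UMIs, with no UMI of any excluding marker, with 1000 genes per nucleus, and without nuclei over 2 times the median, and 0 to 1 with 1 library left out (1 only without naloxone 5). Against astrocytes, 1 gene was called without a filter, 1 with 1000 genes and 1 without nuclei over 2 times the median, and 0 to 10 with 1 library left out, the highest without naloxone 5. Against mural nuclei each alternative gave 0. Genes with groups apart numbered 71 to 135 higher and 135 to 213 lower with 1 library left out, where fewer libraries have to be apart, and 67 and 59 without nuclei over 2 times the median. The difference in arterial share, naloxone minus saline, ran from -8.62 to 4.58 percentage points with 1 library left out, positive without saline 3 (1.96) or naloxone 5 (4.58). The venous share ran from -13.7 to 3.89, positive without saline 1 (3.89) or naloxone 5 (1.25) and with nuclei thinned to 500 UMIs (1.42). The cause was not tested. The share of endothelial nuclei kept its direction in 12 of 12 alternatives, in a design where p cannot go below 0.1, and levels of 21 genes moved by over 1 SD in 22 of 252. With 16 to 70 nuclei per library, 1 UMI is worth up to 51.7 CPM, which limits all genes of low level. No paired analysis was possible because the groups share no replicate numbers.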
